A study of Mus musculus with 19 samples.

Results

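De novo lipogenesis is the pathway by which cells build fatty acids from acetyl-CoA that comes from sugar. The 9 genes described here, *Fasn*, *Acaca*, *Acacb*, *Acly*, *Scd1*, *Scd2*, *Me1*, *Srebf1* and *Mlxipl*, were picked by symbol as its main enzymes and transcriptional regulators, out of 55573 genes in the largest of 3 expression tables. All 9 symbols were found in every table. In the pathway, ATP citrate lyase (*Acly*) turns cytosolic citrate into acetyl-CoA, acetyl-CoA carboxylase (*Acaca*) makes malonyl-CoA from it, and fatty acid synthase (*Fasn*) extends malonyl-CoA into palmitate with NADPH that comes in part from malic enzyme (*Me1*). The second carboxylase, *Acacb*, sits at the mitochondrion, where its malonyl-CoA holds back fatty acid oxidation. Stearoyl-CoA desaturases (*Scd1*, *Scd2*) place the first double bond in the product. *Srebf1* encodes SREBP1, which responds to insulin and sterols, and *Mlxipl* encodes ChREBP, which responds to glucose; both switch on the enzyme genes, and white fat, brown fat and liver are the tissues best known for the pathway.

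The study examined Musclin, a peptide hormone secreted by muscle and encoded by *Ostn*, in male mice. RNA-Seq was run on 7 tissues of chow-fed C57BL/6J wildtype animals with 1 library per tissue (brain, heart, liver, small intestine, tibialis anterior (TA) muscle, white adipose and brown adipose; their exact age and the housing temperature are not given in the sources used here). It was also run on inguinal white adipose tissue (iWAT) and brown adipose tissue (BAT) of MCK-Musclin mice and wildtype (WT) control mice, 5 months old and on chow, after 1 week at 8°C, with 3 libraries per genotype and depot. The transgene carries mouse *Ostn* under the muscle creatine kinase promoter, a promoter active in skeletal and heart muscle; how the mice divide over founder lines is not given in the sources used here. All 12 fat libraries of the genotype comparison came from cold-exposed mice, so no comparison of cold with warmth exists within them.

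Values were FPKM, a fragment count scaled to transcript length and library size, and no read counts were analysed, so the depth behind each value is unknown. Summed FPKM ranged from 393682 to 711437 over the 7 tissues, from 364710 to 384104 in iWAT and from 676362 to 720852 in BAT. The 10 most abundant genes took 48.4 to 51.3% of the sum in BAT and 11.9 to 13.04% in iWAT, so FPKM levels of different tables were not on a common footing. RNA of white adipose and iWAT was extracted with a kit and that of the other tissues with TRIzol, a difference that cannot be told apart from tissue. Each of the 7 tissues held the markers of its label, with *Adipoq* at 1699 FPKM in white adipose and *Ucp1* at 467 FPKM in brown adipose and at most 0.0355 in the other 6. In the cold-exposed fat, *Ucp1* lay between 2778 and 3792 FPKM in the 6 BAT libraries, whose source label reads brown white adipose tissue, and *Adipoq* between 849 and 1099 FPKM in the 6 iWAT libraries. *Ostn* was listed at 37.9, 31.6 and 30.3 FPKM in the 3 MCK-Musclin BAT libraries and at 0 in the 3 WT libraries. In iWAT it was listed at 0, 0 and 0.225 in WT, and at 0, 5.17 and 4.21 in the libraries labelled MCK-Musclin. Library 1 labelled MCK-Musclin thus held no *Ostn*, and it also held no *Ckm*, a muscle gene that WT library 1 lacked too. *Ckm* reached 2.16 and 2.63 FPKM in MCK-Musclin iWAT libraries 2 and 3. It was higher, at 14.02 and 87.18 FPKM, in WT iWAT libraries 2 and 3, where *Ostn* was at 0 and 0.225. WT mice carry no transgene. Among the MCK-Musclin iWAT libraries, *Ckm* and *Ostn* were both at 0 in library 1 and both above 0 in libraries 2 and 3. The part of muscle RNA in these *Ostn* values was not tested. The iWAT calls, and the log2 differences that move most with these 2 libraries numbered 1, are also given without one or both of them.

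Positions in GRCm38 were taken from the GENCODE annotation, and *Fasn* (ENSMUSG00000025153) lay at chr11:120805846-120824547 on the minus strand. *Acaca* (ENSMUSG00000020532) spanned chr11:84129672-84401651 (plus), *Acly* (ENSMUSG00000020917) chr11:100476353-100528000 (minus) and *Srebf1* (ENSMUSG00000020538) chr11:60199089-60222581 (minus), so that 4 of the 9 genes were on chromosome 11. *Acacb* (ENSMUSG00000042010) was at chr5:114146535-114250761 (plus) and *Mlxipl* (ENSMUSG00000005373) at chr5:135089890-135138382 (plus). The desaturase genes were neighbours on chromosome 19, *Scd2* (ENSMUSG00000025203) at chr19:44293674-44306864 (plus) and *Scd1* (ENSMUSG00000037071) at chr19:44394455-44407879 (minus). *Me1* (ENSMUSG00000032418) lay at chr9:86581371-86695953 (minus). Exons of 4 members overlapped another gene, which matters because reads were not aligned by strand. *Srebf1* shared 109 exonic bases with *Rai1* on the opposite strand, whose level reached at most 8.70 FPKM in the 7 tissues, and 66 with a microRNA gene. The overlaps of *Mlxipl* (235 bases with an antisense gene), *Scd2* (61 bases with a microRNA gene) and *Me1* (30 bases with an antisense gene) were short as well.

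Promoter sequences are shown for the gene that separated the genotypes in iWAT (*Mlxipl*) and for a pair of enzymes that varied widely between iWAT libraries (*Fasn*, *Acly*). Each is the 250 bases upstream of a RefSeq start on GRCm38.p6, read 5′ to 3′ on the gene's own strand. Capitals mark every match, on either strand, to 5 motifs: the E-box CACGTG, a site of basic helix-loop-helix factors, the sterol regulatory element TCACNCCAC, the CCAAT box CCAAT, the GC box GGGCGG and the TATA box TATAAA; neighbouring matches may overlap, as in CCAATTGG.
*Fasn*, chr11:120824548-120824797, minus strand: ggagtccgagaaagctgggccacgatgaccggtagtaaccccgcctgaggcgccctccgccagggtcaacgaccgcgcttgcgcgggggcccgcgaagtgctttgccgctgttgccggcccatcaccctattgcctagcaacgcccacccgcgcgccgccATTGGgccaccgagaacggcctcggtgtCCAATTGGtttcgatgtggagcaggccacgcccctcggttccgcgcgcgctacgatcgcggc
*Acly*, chr11:100528001-100528250, minus strand: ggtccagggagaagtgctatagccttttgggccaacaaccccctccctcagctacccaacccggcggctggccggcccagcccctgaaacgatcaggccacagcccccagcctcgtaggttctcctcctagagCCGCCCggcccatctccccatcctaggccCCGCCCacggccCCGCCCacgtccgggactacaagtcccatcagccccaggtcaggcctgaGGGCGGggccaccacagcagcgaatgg
*Mlxipl*, upstream start, chr5:135089640-135089889, plus strand: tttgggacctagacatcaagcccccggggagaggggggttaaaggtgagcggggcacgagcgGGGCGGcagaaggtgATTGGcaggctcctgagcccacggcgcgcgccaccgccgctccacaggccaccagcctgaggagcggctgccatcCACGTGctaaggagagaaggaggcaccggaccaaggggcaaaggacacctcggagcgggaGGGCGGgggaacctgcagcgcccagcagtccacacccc
*Mlxipl*, downstream start, chr5:135106641-135106890, plus strand: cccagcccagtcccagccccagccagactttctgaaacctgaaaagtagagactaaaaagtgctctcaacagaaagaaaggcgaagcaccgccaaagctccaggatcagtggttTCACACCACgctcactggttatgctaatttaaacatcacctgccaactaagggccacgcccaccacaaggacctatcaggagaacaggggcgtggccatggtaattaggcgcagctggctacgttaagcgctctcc

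The *Fasn* window held 3 CCAAT matches, and that of *Acly* held 4 GC boxes. The upstream *Mlxipl* window held 1 E-box, 1 CCAAT and 2 GC box matches, whereas the window of its second start, 17001 bases downstream, held 1 sterol regulatory element and no other of the 5 motifs. Over the 11 RefSeq starts of the 7 members in the promoter table, CCAAT occurred in 6 and the GC box in 5, beside 33.8% and 32.7% of all 32851 promoters of the same length. The E-box occurred in 1 of 11 (6.02% of all promoters), the sterol regulatory element in 1 of 11 (1.05%) and the TATA box, in *Acacb*, in 1 of 11 (12.4%). A match describes letters in a window and not a bound site. FPKM were given per gene, so the starts of *Mlxipl* were not measured apart.

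Across the 7 tissues, the sum over the 9 genes was highest in fat and liver. It was 1.03% of summed FPKM in white adipose, 0.252% in liver, 0.230% in brown adipose, 0.0790% in brain and 0.0122% in heart. *Scd1* made up most of it in fat and liver, at 3794 of 4327 FPKM in white adipose, 1148 of 1636 in brown adipose and 1040 of 1404 in liver. In brain *Scd1* was 64.5 of 311 FPKM. The shares of fat and liver therefore describe mainly *Scd1*. White adipose had the highest FPKM of *Fasn*, *Scd1*, *Me1* and *Srebf1*, and brown adipose that of *Acaca*, *Acacb* and *Acly*. Thus 7 of 9 members peaked in a fat library, where 27.0% of the 14692 genes whose mean reached 1 FPKM did. *Mlxipl* was highest in liver and *Scd2* in brain. On the TPM scale, on which every library has the same sum, the order of the tissues changed for 6 of 9 members, and white adipose replaced brown adipose as the highest tissue for *Acaca* and *Acly*. The highest tissue of the other 7 members was the same on both scales. The orders below are those of FPKM, and their lower places can differ on TPM. On TPM liver passed brown adipose for *Scd1* (1864 against 1614), and small intestine passed it for *Mlxipl* (110 against 106). For *Me1* heart passed brown adipose (44.0 against 43.1 TPM) and brain passed small intestine (39.1 against 31.8). With 1 library per tissue, none of these orders has a replicate check.

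**Figure D1:**
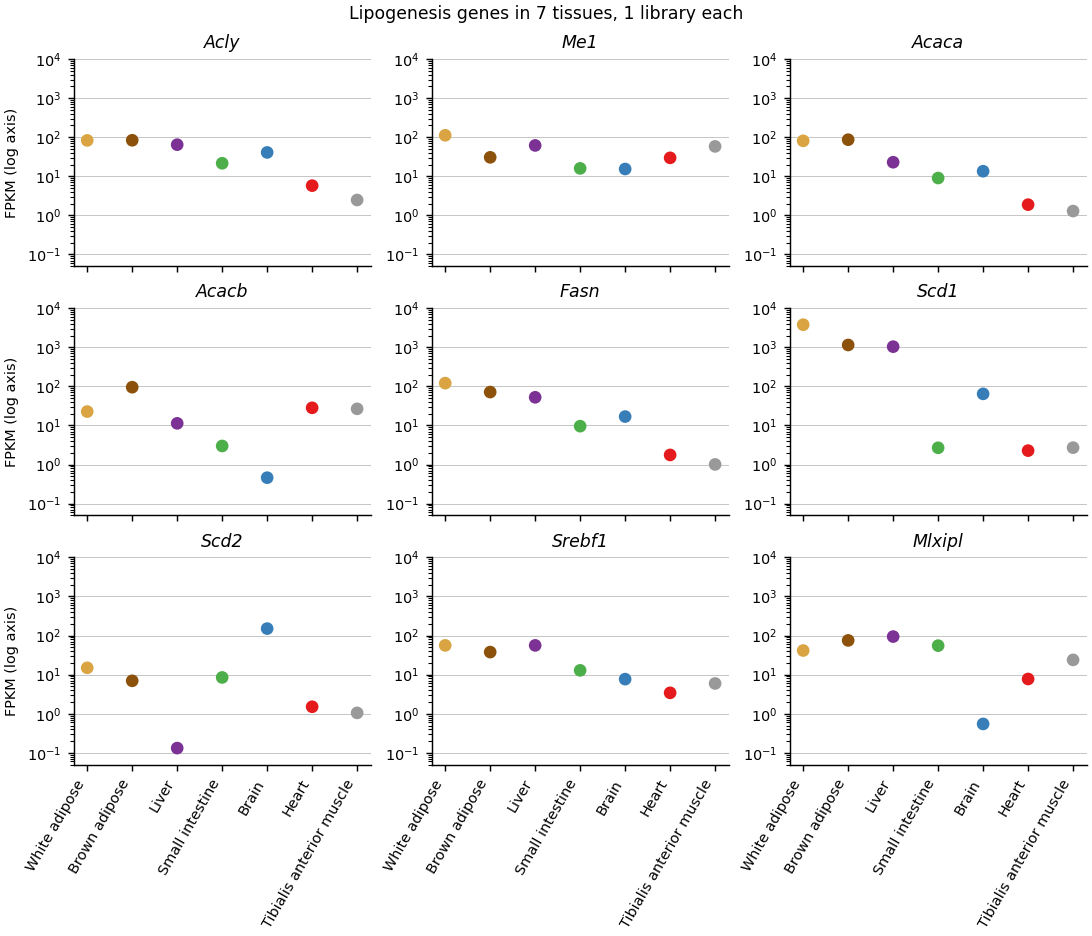
FPKM of each gene (log axis) in the 7 wildtype tissues, 1 point per library. *Scd1* spans 2.28 to 3794 FPKM and *Scd2* 0.132 to 151, while *Me1* stays between 15.4 and 112.

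*Acly*, the source of cytosolic acetyl-CoA, was measured at 83.7 FPKM in brown adipose, 83.1 in white adipose, 64.6 in liver, 40.9 in brain, 21.6 in small intestine, 5.78 in heart and 2.48 in TA muscle. Its levels in both fats differed by a ratio of 1.01 only, on FPKM + 1. *Me1*, the cytosolic malic enzyme, had a flatter profile, with 112 FPKM in white adipose, 61.7 in liver, 58.3 in TA muscle, 30.6 in brown adipose, 29.7 in heart, 16.0 in small intestine and 15.4 in brain. It was the most abundant of the 9 genes in both striated muscles.

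*Fasn*, which catalyses palmitate synthesis, stood at 121 FPKM in white adipose, 71.7 in brown adipose, 52.7 in liver, 16.9 in brain, 9.61 in small intestine, 1.76 in heart and 1.01 in TA muscle. *Acaca*, the cytosolic carboxylase, ran alongside it with 86.6 FPKM in brown adipose, 81.0 in white adipose, 22.9 in liver, 13.5 in brain, 9.05 in small intestine, 1.88 in heart and 1.29 in TA muscle. The profile of *Acacb*, the mitochondrial form, was another one: 95.5 FPKM in brown adipose, 28.4 in heart, 26.7 in TA muscle, 22.7 in white adipose, 11.4 in liver, 2.99 in small intestine and 0.462 in brain. Striated muscle therefore had little *Fasn* and *Acaca* beside its *Acacb*. On the TPM scale white adipose passed both muscles in *Acacb*, with 54.1 TPM against 45.8 in TA muscle and 41.9 in heart. Within a library, where scaling cancels, the ratio of *Acacb* to *Acaca* was 20.6 in TA muscle and 15.0 in heart, 1.10 in brown adipose, 0.495 in liver, 0.331 in small intestine, 0.280 in white adipose and 0.0342 in brain.

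*Scd1*, the desaturase of lipogenic tissues, was the most abundant member in white adipose (3794 FPKM, rank 13 among all genes of that library), brown adipose (1148, rank 34) and liver (1040.2, rank 75). It measured 64.5 FPKM in brain, 2.71 in TA muscle, 2.69 in small intestine and 2.28 in heart. *Scd2*, a close relative known from brain, reached 151 FPKM there, 15.0 in white adipose, 8.49 in small intestine, 6.96 in brown adipose, 1.51 in heart, 1.05 in TA muscle and 0.132 in liver. Brain held 82.0% of *Scd2* FPKM summed over the 7 tissues, and the value was 9.53 times the next on FPKM + 1. *Scd2* came to 316% of *Scd1* in small intestine and 234% in brain, against 0.0127% in liver. The remaining family members were scarce, with *Scd3* highest in brain at 3.29 FPKM and *Scd4* in heart at 2.03.

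**Figure D2:**
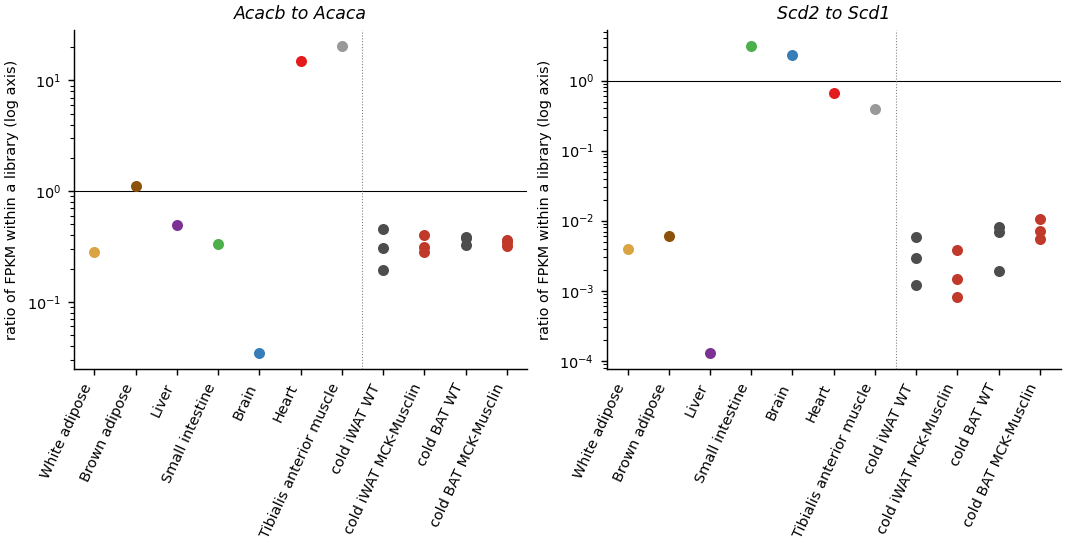
Ratios of FPKM within each of 19 libraries (log axes), *Acacb* to *Acaca* on the left and *Scd2* to *Scd1* on the right; points left of the dotted line are the 7 tissues, those right of it the cold-exposed fat libraries, 3 per group. *Acacb* exceeds *Acaca* in TA muscle (20.6), heart (15.0) and brown adipose (1.10), and the cold fat libraries lie between 0.194 and 0.453.

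The regulators differed from each other in brain and muscle. *Srebf1* was at 56.1 FPKM in white adipose and likewise 56.1 in liver, 37.8 in brown adipose, 12.9 in small intestine, 7.68 in brain, 5.95 in TA muscle and 3.43 in heart. *Mlxipl* was at 94.3 FPKM in liver, 75.2 in brown adipose, 55.3 in small intestine, 41.4 in white adipose, 23.9 in TA muscle, 7.75 in heart and 0.549 in brain. Brain thus had *Fasn*, *Acly* and *Scd2* with *Mlxipl* near 0, and TA muscle had *Mlxipl* with *Fasn* near 1 FPKM.

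Over the 7 tissues, the profile of *Fasn* on log2(FPKM + 1) lay close to those of *Acaca* (Pearson r = 0.979), *Acly* (0.974), *Scd1* (0.948) and *Srebf1* (0.923). It was far from those of *Mlxipl* (0.398) and *Acacb* (0.102), and *Scd1* and *Scd2* had a correlation of 0.143. Genes outside the pathway reached values as high over so few libraries, such as *Tex264* with *Fasn* (0.990), *Mettl7a1* with *Srebf1* (0.990), *Slc25a16* with *Scd1* (0.984), *Gypc* with *Acacb* (0.963) and *Sqor* with *Mlxipl* (0.948). These correlations describe 7 points that differ in tissue and extraction method.

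The genotype comparison asked whether fat of cold-exposed mice with extra Musclin in muscle differed from that of WT mice. The test was limma on log2(FPKM + 1), run on genes whose mean reached 1 FPKM. A gene was called when its unadjusted p fell under 0.05 and its log2 difference exceeded 0.5 (iWAT) or 0.3 (BAT) in size. In iWAT, all 9 genes had a lower fitted mean in MCK-Musclin than in WT, with a median log2 difference of -0.58. Over all 12197 genes tested, 38.7% were below 0 and the median was 0.06. Only *Mlxipl* met the call, 1 of 9, where 0.902% of all genes were called lower and 5.04% higher. At an unadjusted p under 0.05 alone there were 3 of 9 (*Mlxipl*, *Srebf1* and, at the margin, *Acacb*), beside 16.5% of all genes. By limma with Benjamini-Hochberg adjustment, 0 of the 12197 genes passed 0.05, so the differences of single genes in iWAT did not hold up after correction. That number depended on the setting. It was 455 of 12197 with samples scaled to general adipocyte markers and 86 of 12216 without WT library 1, with no member among them.

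*Mlxipl*, encoding ChREBP, was at 35.3, 23.3 and 25.5 FPKM in the 3 WT iWAT libraries and at 15.5, 18.7 and 20.5 in the 3 MCK-Musclin libraries. Every MCK-Musclin library was below every WT library, which held for 5.44% of all genes and for no other member. The means were 28.0 ± 6.37 and 18.2 ± 2.53 FPKM (SD, n = 3 each), a log2 difference of -0.58 (SE 0.17, limma adjusted p = 0.190). Left without library 1 of both groups, the log2 difference was -0.30 (limma adjusted p = 0.325). *Srebf1*, encoding SREBP1, was at 52.5, 39.6 and 44.6 FPKM in WT and at 42.0, 32.03 and 29.3 in MCK-Musclin. MCK-Musclin library 1 lay above WT library 2, and the other MCK-Musclin libraries lay below all of WT. Its log2 difference was -0.40 (SE 0.16, limma adjusted p = 0.281), short of the 0.5 that the call asks for.

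*Acacb*, the brake on fatty acid oxidation, was steady in WT iWAT at 38.89, 37.1 and 38.2 FPKM and spread from 37.3 to 21.0 and 27.0 in MCK-Musclin. Library 1 labelled MCK-Musclin, the one with no *Ostn*, sat inside the WT range. The log2 difference was -0.44 (SE 0.19, limma adjusted p = 0.303). Omitting library 1 of both groups gave -0.64 for *Acacb* (limma adjusted p = 0.167). *Acaca* measured 200.1, 121 and 84.2 FPKM in WT and 132.5, 67.0 and 67.6 in MCK-Musclin, so the groups overlapped through library 1 of MCK-Musclin. Its log2 difference of -0.58 had an SE of 0.37 (limma adjusted p = 0.465), and it was -0.25 without WT library 1.

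*Fasn* had one of the widest spreads, with 546, 218 and 181 FPKM in the WT libraries and 319, 121 and 118 in the MCK-Musclin libraries. In both groups library 1 was high, 3.01 times the lowest library in WT and 2.70 times in MCK-Musclin, more than the distance between the group means of 315 ± 201 and 186 ± 115 FPKM (SD, n = 3 each). The log2 difference was -0.74 (SE 0.51, limma adjusted p = 0.506). Without WT library 1 it was -0.26, and without library 1 of both groups -0.73. *Acly* was wider still, at 417, 116 and 78.4 FPKM in WT against 173, 52.2 and 56.1 in MCK-Musclin, a 5.31-fold span among WT libraries. Its log2 difference of -0.96 had an SE of 0.68 (limma adjusted p = 0.519), and it was -0.25 without WT library 1, -1.45 without WT library 3 and -0.80 without library 1 of both groups. *Me1* had the same order of libraries as *Fasn*, with 433, 241.5 and 157 FPKM in WT and 316, 126 and 117 in MCK-Musclin. Its log2 difference was -0.60 (SE 0.47, limma adjusted p = 0.556). It was -0.22 without WT library 1 and -0.68 without library 1 of both groups.

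*Scd1* was the most abundant of the 9 genes in iWAT and more even than *Fasn*, ranking 5 among all genes in each of the 6 libraries. It measured 5451, 4532 and 3668 FPKM in WT and 4177, 4834 and 2991 in MCK-Musclin, with overlapping groups and a log2 difference of -0.20 (SE 0.23, limma adjusted p = 0.709). *Scd2* stayed far below it, at 31.6, 13.4 and 4.36 FPKM in WT and 6.19, 3.91 and 11.3 in MCK-Musclin. Its 7.26-fold span within WT was the widest of the 9 genes, and the log2 difference was -0.85 (SE 0.63, limma adjusted p = 0.538). That value also rested on single libraries, being -0.22 without WT library 1, -1.52 without WT library 3 and -0.18 without library 1 of both groups.

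**Figure D3:**
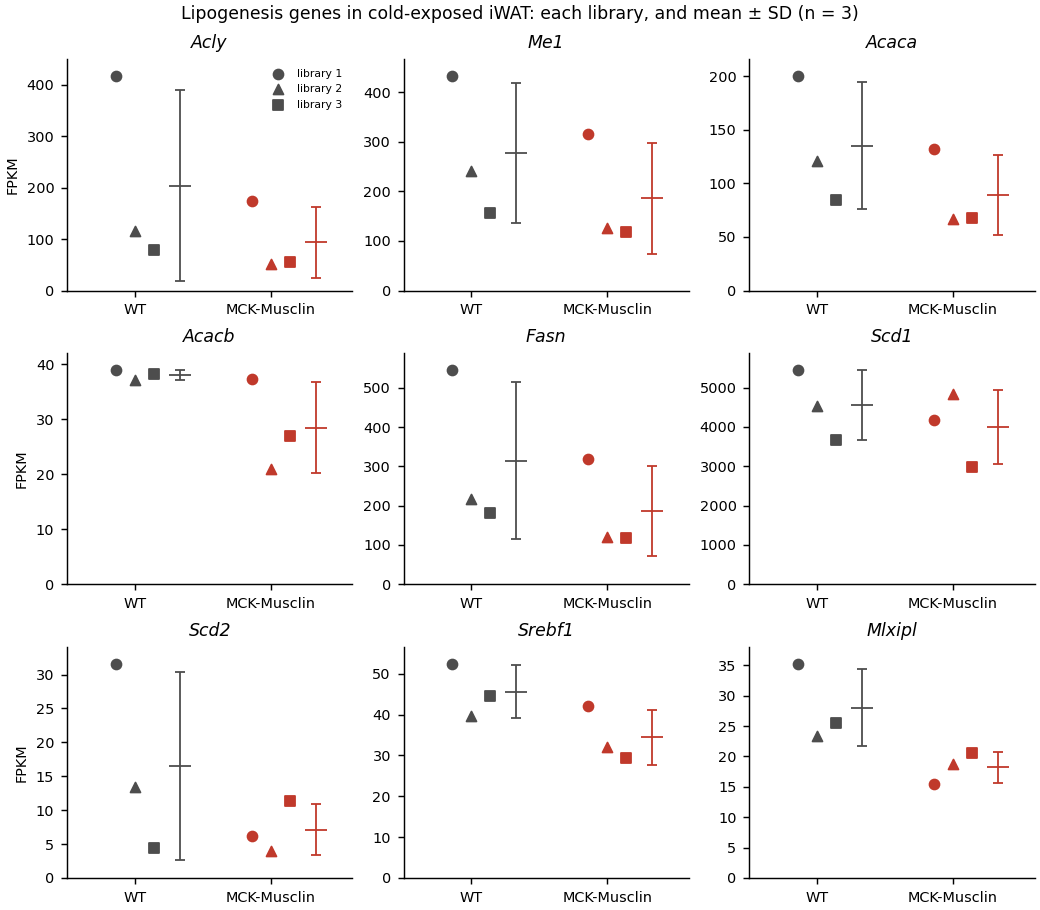
FPKM of the 9 genes in cold-exposed iWAT, 1 point per library (symbols give the library number) with mean ± SD (n = 3) beside them; axes start at 0. WT library 1 is the highest of 6 for every gene, and only for *Mlxipl*, at 23.3 to 35.3 against 15.5 to 20.5, do the groups not overlap.

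WT library 1 was the highest of the 6 iWAT libraries for 9 of 9 members and for 10 of 11 further lipogenic enzymes and carriers that were tested, while it was highest for 11.2% of all genes. Mean log2(FPKM + 1) over the 9 members was 7.54, 6.74 and 6.37 in WT and 6.75, 6.01 and 6.12 in MCK-Musclin, so MCK-Musclin library 1 also stood above the others of its group. Without library 1 of both groups, which leaves 2 libraries against 2, 5 of 9 members met the call as lower instead of 1, among them *Fasn* (log2 difference -0.73, limma adjusted p = 0.123) and *Acacb*, and *Mlxipl* did not, at a setting where 2.44% of all genes were called lower. Leaving out WT library 1 alone left 0 of 9 (1.74% of all genes lower), leaving out WT library 3 gave 3 (0.879%), and leaving out library 1 labelled MCK-Musclin gave 5 (1.46%). The number of members called in iWAT therefore ran from 0 to 5 with the choice of libraries. Direction was steadier, since the log2 difference of *Fasn* stayed between -1.21 and -0.26 over 19 alternative settings and that of *Mlxipl* between -0.70 and -0.30.

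Markers of other cells also differed between the iWAT groups. The 14 general adipocyte markers summed to 17385 to 18744 FPKM in WT and 15529 to 17528 in MCK-Musclin, with 13 of 14 fitted lower and 0 called. All 10 brown and beige fat markers were fitted lower, 6 of them called, with sums of 582, 917 and 1086 FPKM in WT and 655, 231 and 120 in MCK-Musclin. WT library 1, highest in lipogenic genes, was the lowest of the WT libraries in beige markers. MCK-Musclin library 1 was instead the highest of its group both in the mean of the 9 genes and in beige markers. All 10 B and T cell markers were fitted higher, 8 of them called, with sums of 205 to 342 FPKM in WT and 398 to 527 in MCK-Musclin, and 8 of 10 macrophage markers were fitted higher, 1 called. Fast muscle markers summed to 10.9, 831 and 4656 FPKM in WT and to 11.1, 160 and 190 in MCK-Musclin. The part of these cells in the values of the 9 genes was not tested, and in tissue RNA fewer cells of a type and less RNA per cell cannot be told apart. With samples scaled to the adipocyte markers, the median of all iWAT genes moved from 0.06 to 0.26 and 0 of 9 members met the call, *Mlxipl* included.

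In BAT, levels of the 9 genes did not separate the genotypes. The log2 differences were below 0 for 3 genes and above 0 for 6, with a median of 0.05, while 52.3% of the 10893 genes tested were below 0. None of the 9 met the call by limma, where 2.15% of all genes were called lower and 1.85% higher, and none had an unadjusted p under 0.05 (4.89% of all genes) or an adjusted one (0.00918%). None had groups that did not overlap, where 5.63% of all genes lay wholly below WT in MCK-Musclin and 4.38% wholly above. *Fasn* stood at 1043, 1040.2 and 866 FPKM in WT and 1029, 1209 and 855 in MCK-Musclin (log2 difference 0.06, SE 0.14, limma adjusted p = 0.988). *Acaca* was at 397, 396 and 333 FPKM in WT and 433, 494 and 351 in MCK-Musclin (0.17, SE 0.14, limma adjusted p = 0.968). In both genes library 3 was the lowest of its group, and the groups overlapped throughout.

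*Acacb* in BAT was at 130.4, 148 and 129 FPKM in WT and 152, 159 and 128 in MCK-Musclin (log2 difference 0.10, SE 0.11, limma adjusted p = 0.968). *Acly* was at 1105, 734 and 738 FPKM in WT and 840.4, 944 and 729 in MCK-Musclin (-0.02, SE 0.18, limma adjusted p = 0.996), where WT library 1 stood out. *Me1* was at 457, 369.7 and 413 FPKM in WT and 479, 464 and 351 in MCK-Musclin (0.05, SE 0.14, limma adjusted p = 0.988). *Scd1*, at rank 18 to 22 among all genes, was at 4805, 5334 and 4042 FPKM in WT and 4910.0, 5669.5 and 4072 in MCK-Musclin (0.04, SE 0.15, limma adjusted p = 0.991). An SE of 0.11 to 0.18 for these enzymes was smaller than the 0.19 to 0.68 found for the same genes in iWAT.

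*Scd2* was the one enzyme with a wide spread in BAT, at 38.7, 10.05 and 28.2 FPKM in WT and 34.6, 31.3 and 43.5 in MCK-Musclin. WT library 2 was the lowest by far, and the log2 difference was 0.67 (SE 0.43, limma adjusted p = 0.968), or 0.13 without that library. Both regulators overlapped between groups, with *Srebf1* at 47.1, 28.1 and 28.0 FPKM in WT against 26.4, 31.9 and 34.9 in MCK-Musclin (-0.11, SE 0.21, limma adjusted p = 0.986). *Mlxipl* was at 121, 91.1 and 101 FPKM in WT and 86.8, 110 and 105 in MCK-Musclin (-0.05, SE 0.14, limma adjusted p = 0.988). Markers of fast muscle summed to 511 to 810 FPKM in WT BAT and 851 to 1822 in MCK-Musclin BAT, with 9 of 10 called higher, and their part in these values was not tested.

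**Figure D4:**
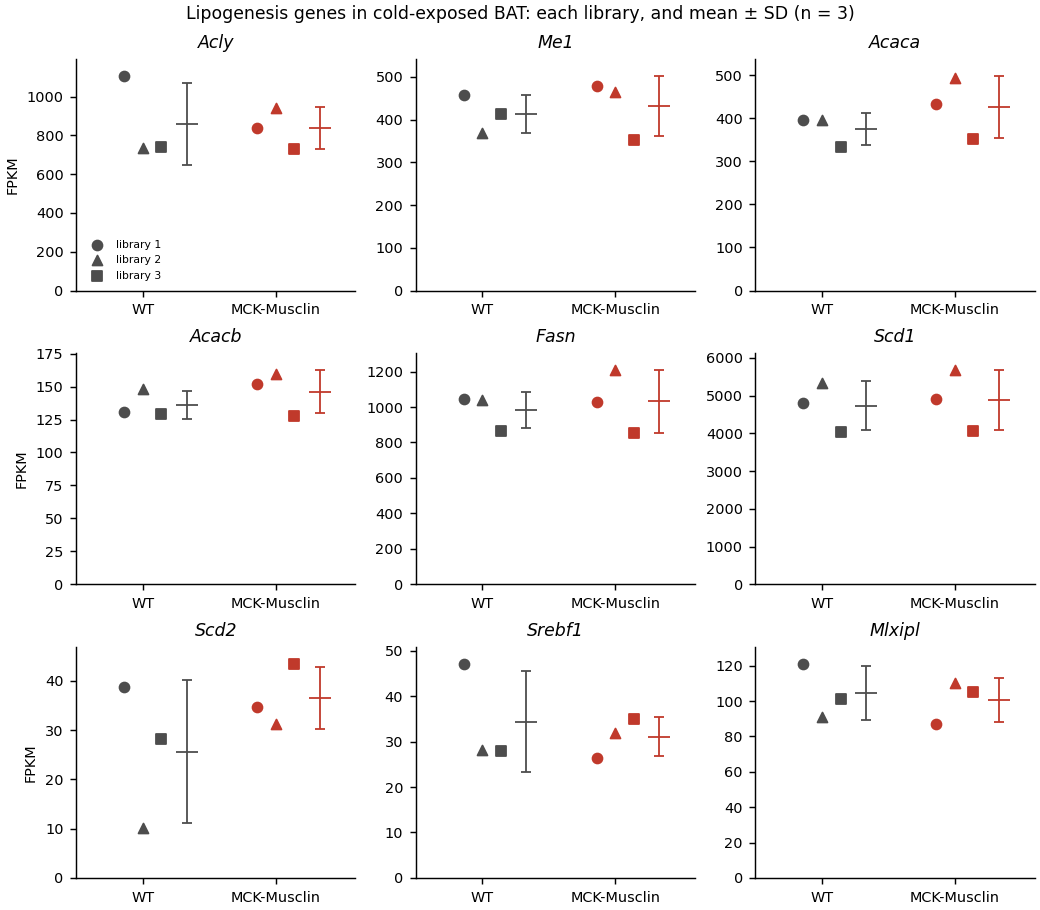
FPKM of the 9 genes in cold-exposed BAT, drawn as for iWAT with points for libraries and mean ± SD (n = 3). The groups overlap for every gene, and *Scd2* in WT library 2 (10.05 FPKM) is the one value far below the rest of its panel.

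The difference of the genotype effect between depots was tested itself, as the interaction contrast of limma over 9757 genes. The fit took all libraries as independent and gave both depots a shared variance per gene, although iWAT spread more than BAT. Whether iWAT and BAT came from the same mice is not given in the sources used here. The contrast was negative for all 9 members, meaning that the MCK-Musclin minus WT difference was lower in iWAT than in BAT. It had an unadjusted p under 0.05 for 2 of 9, beside 10.1% of all genes, and for 0 of 9757 genes after adjustment. *Acacb* differed by -0.55 (SE 0.23, limma adjusted p = 0.472) and *Mlxipl* by -0.53 (SE 0.24, limma adjusted p = 0.487). For *Fasn* the contrast was -0.80 (limma adjusted p = 0.682) and for *Acly* -0.94 (limma adjusted p = 0.731), within the spread of the iWAT libraries. Leaving out iWAT WT library 1 left 0 of 9 members at an unadjusted p under 0.05, and leaving out iWAT library 1 labelled MCK-Musclin gave 4.

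**Figure D5:**
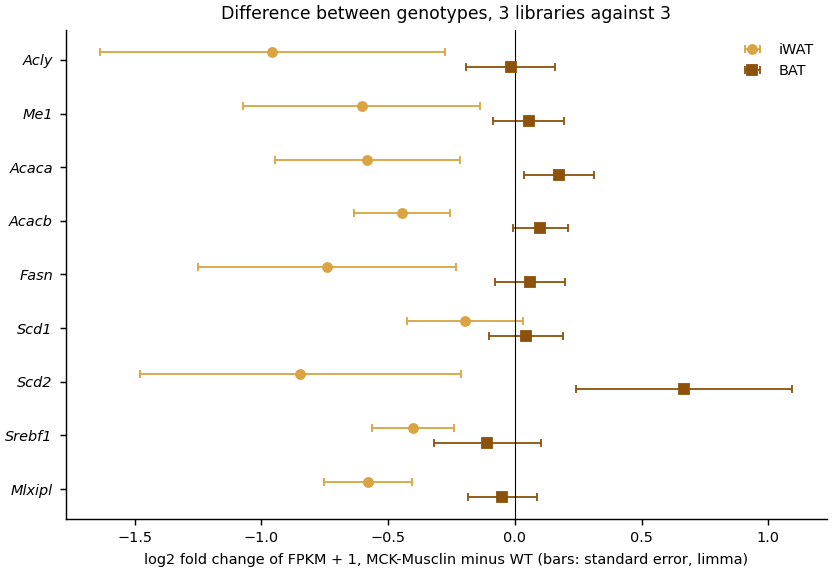
Log2 difference of FPKM + 1, MCK-Musclin minus WT, for each gene in iWAT (circles) and BAT (squares), with bars of 1 standard error from limma. All 9 iWAT values lie below 0 with wide bars for *Acly*, *Scd2* and *Fasn*, and the BAT values lie near 0 except *Scd2* at 0.67.

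Ratios between members within a library did not separate the genotypes either. *Acacb* to *Acaca* was 0.194, 0.307 and 0.453 in WT iWAT and 0.282, 0.314 and 0.399 in MCK-Musclin iWAT (log2 difference 0.13, exact two-sided permutation p = 0.8). In BAT it was 0.328, 0.375 and 0.388 against 0.350, 0.323 and 0.364 (-0.07, exact permutation p = 0.4). *Scd1* to *Fasn* was 9.99, 20.8 and 20.2 in WT iWAT and 13.1, 39.9 and 25.3 in MCK-Musclin iWAT (0.55, exact permutation p = 0.4), while all 6 BAT libraries lay between 4.60 and 5.13. It was lowest in library 1 of both iWAT groups, where *Fasn* was highest. *Scd2* to *Scd1* (exact permutation p = 0.5 in both depots) and *Acly* to *Fasn* (exact permutation p = 0.6 in iWAT and 0.7 in BAT) overlapped as well. Without WT library 1 the iWAT log2 differences were -0.19 for *Acacb* to *Acaca*, 0.20 for *Scd1* to *Fasn*, -0.18 for *Scd2* to *Scd1* and 0.0053 for *Acly* to *Fasn*. With 3 libraries against 3, this exact permutation test cannot go below p = 0.1.

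Genes around the pathway were listed as further lipogenic enzymes, NADPH supply, SREBP and LXR regulation, ChREBP partners and targets, and AMPK with malonyl-CoA control. Of 46 tested per depot, 1 was called lower and 0 higher in iWAT, and 1 lower and 0 higher in BAT. Over all genes tested, 0.902% were called lower and 5.04% higher in iWAT, and 2.15% and 1.85% in BAT. The iWAT gene was *Elovl6*, which elongates palmitate: 115, 50.3 and 30.8 FPKM in WT and 47.2, 13.2 and 10.4 in MCK-Musclin, a log2 difference of -1.53 (SE 0.63, limma adjusted p = 0.287). Within each group its libraries took the order seen for *Fasn*, with library 1 highest. *Thrsp*, a lipogenic cofactor also known as Spot 14, was at 1836 ± 420 FPKM in WT and 1334 ± 354 in MCK-Musclin (SD, n = 3 each; log2 difference -0.47, limma adjusted p = 0.398). The BAT gene was *Arrdc4*, a ChREBP target, with a log2 difference of -0.31 (limma adjusted p = 0.968).

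By list, 8 of 11 further lipogenic genes were fitted lower in iWAT (median -0.31), as were 6 of 10 NADPH genes (-0.18), 5 of 11 SREBP and LXR genes (0.10), 3 of 6 ChREBP genes (0.02) and 5 of 8 AMPK genes (-0.08). Over all iWAT genes tested, 38.7% were below 0 and the median was 0.06. In the AMPK list, *Prkaa2*, the alpha2 catalytic subunit of AMPK, had every MCK-Musclin library below WT (log2 difference -0.45, limma adjusted p = 0.21). It had an unadjusted p under 0.05, at under the size the call asks for. Its means were low, at 2.03 FPKM in WT and 1.23 in MCK-Musclin, where adding 1 to FPKM shrinks the difference. *Prkab1* of the same list had every MCK-Musclin library above WT (0.10, limma adjusted p = 0.646). Of all iWAT genes tested, 5.44% lay wholly below WT in MCK-Musclin and 17.9% wholly above. *Mlx*, the dimer partner of ChREBP, was at 13.7 ± 1.98 FPKM in WT and 10.6 ± 2.23 in MCK-Musclin (SD, n = 3 each; -0.35, limma adjusted p = 0.349). In BAT the list medians lay between -0.09 and 0.12, where 52.3% of all genes tested were below 0. All 8 AMPK genes tested there were fitted higher, and *Mlycd*, malonyl-CoA decarboxylase, had a log2 difference of 0.29 (limma adjusted p = 0.968), with an unadjusted p under 0.05 and a size just under the cutoff of 0.3.

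Levels in the cold-exposed WT libraries were set beside those of the 7-tissue libraries, although the tables were normalized separately, the mice differed and no test is possible. The WT mean in cold BAT was 13.7 times the brown adipose library for *Fasn*, 13.5 times for *Me1*, 10.3 times for *Acly*, 4.33 times for *Acaca* and 4.12 times for *Scd1*. It was 1.42 times for *Acacb*, 1.39 times for *Mlxipl* and 0.910 times for *Srebf1*. Over 10183 genes the median of this ratio was 0.824, and 1.49% of genes exceeded 4. In all 3 cold BAT libraries of WT mice the 7 enzyme genes were above the brown adipose library, with lowest ratios of 12.1 for *Fasn* and 1.35 for *Acacb*. In iWAT against the white adipose library, whose depot is not stated, the ratio was 2.60 for *Fasn*, 2.47 for *Me1*, 2.45 for *Acly*, 1.68 for *Acacb*, 1.67 for *Acaca*, 1.20 for *Scd1*, 1.10 for *Scd2*, 0.813 for *Srebf1* and 0.676 for *Mlxipl*, with a median of 0.943 over 11406 genes. WT library 1 raised these means: without it the ratio was 1.65 for *Fasn*, 1.78 for *Me1*, 1.17 for *Acly* and 0.595 for *Scd2*. The lowest WT iWAT library was below the white adipose library for *Acly* (0.943), *Scd1* (0.967) and *Scd2* (0.291).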

How the data were processed

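Libraries had been made from total RNA with a SMART-RNAseq kit. Per the methods and the submitters' processing notes, reads of poly(A) RNA were filtered with fastp and Bowtie2. They were aligned without strand to the mouse genome (mm10/GRCm38) by HISAT2 2.1.0. The methods name StringTie for the FPKM values per gene. The notes also name Bowtie2 2.4.1 and Cuffdiff 2.1.137 without saying for which step, so which tool made the deposited FPKM is not settled here. No count table was used, so the count model of the study could not be run and the cutoffs of its methods were applied to limma. The tables held 55860 (7 tissues), 55774 (BAT) and 13756 (iWAT) lines, of which 287, 287 and 0 were repeats and were dropped.

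Group labels came from the sample titles. Genotypes were compared with limma 3.58.1 in R 4.3.3 (trend, Benjamini-Hochberg over all genes tested) on log2(FPKM + 1), so fold changes of low genes are understated, over genes with a mean of at least 1 FPKM, within a table. The depot contrast was fitted over all 12 fat libraries, and ratios were tested by exact two-sided permutation. Scripts were tested on simulated data. The labels call the libraries biological replicates. The named genes were the 9 members, pathway and marker lists, *Ostn*, and the genes closest to each member over the 7 tissues. Members and lists were chosen with earlier results of these data known. Same-numbered libraries did not deviate together in every pair (correlations 0.235, 0.0615 and 0.107 in iWAT and -0.0951, -0.00463 and 0.00937 in BAT). Different-numbered pairs ran from -0.180 to 0.0702 in iWAT and from -0.0842 to 0.0795 in BAT. In iWAT every same-numbered pair was thus positive, and in BAT not, so numbers were not taken to pair mice. Alternatives were other pseudocounts, filters, scalings and weights, a replicate block, and leaving out each library. Depth is unknown, and no counting interval could be given. RefSeq promoters matched 7 of 9 members.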

Additional observations from a re-analysis of the deposited data

Results flagged for a closer look

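The genotype effect differed between depots for *Mlxipl* and *Acacb* by the interaction contrast of limma at an unadjusted p under 0.05. For *Mlxipl*, encoding ChREBP, the MCK-Musclin minus WT difference in iWAT minus that in BAT was -0.53 on log2(FPKM + 1) (SE 0.24, limma adjusted p = 0.487), with -0.58 in iWAT and -0.05 in BAT. For *Acacb*, the mitochondrial carboxylase, it was -0.55 (SE 0.23, limma adjusted p = 0.472), with -0.44 in iWAT and 0.10 in BAT. Each kept its negative sign in 24 of 24 alternatives and had a p under 0.05 in 14 of 24, with adjusted p from 0.416 to 0.639 for *Mlxipl* and from 0.224 to 0.661 for *Acacb*. At this p, 10.1% of all 9757 genes differed between depots.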

How the results depend on the processing

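The number of members called lower in iWAT (1 of 9) was the least stable value. It was 2 of 9 after conversion to TPM, 2 with median-ratio scaling, 2 with quantile scaling and 0 when centred on adipocyte markers, which moved the split of all iWAT calls from 110 lower and 615 higher to 29 and 1783 (184 and 429 with median-ratio scaling, 201 and 605 on TPM). In BAT the split moved from 234 lower and 202 higher to 76 and 426 when centred. With a replicate block the number in iWAT was 5 (1.26% of all genes lower, 5.08% higher). By limma with this block, 7 of 9 members had an unadjusted p under 0.05, beside 1956 of 12197 genes, and 0 an adjusted one. Whether the numbers pair mice is not established. The same block gave 0 in BAT and 2 for the depot contrast, and not every library correlated best with its own number. Leaving out 1 library gave 0 to 5 in iWAT, and 5 without both libraries numbered 1, an alternative chosen after seeing the data. In BAT the number called higher (0) was 0 to 1 leaving out 1 library, with 1 without WT 1 or without MCK-Musclin 3. Members that differed between depots (2) were 0 when centred, 1 with no trend in the variance, and 0 to 4 leaving out 1 library, with 0 without iWAT WT 1, iWAT MCK-Musclin 2, BAT WT 3 or BAT MCK-Musclin 2 and 4 without iWAT MCK-Musclin 1. Of the pathway genes, centring gave 0 lower and 1 higher in each depot, and a minimum mean of 5 FPKM gave 0 lower in BAT.

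On TPM, white adipose passed brown adipose, with a ratio of 1.58 for *Acaca* and 1.67 for *Acly*, and passed heart and TA muscle for *Acacb*. The genotype differences that turned were these. *Scd1* in iWAT was 0.0016 when centred, and -0.35 to 0.00050 leaving out 1 library. In BAT, *Acly* was 0.0099 on TPM, 0.016 with quantile scaling, 0.081 centred and 0.021 with library weights, and *Mlxipl* was 0.048 centred. Leaving out 1 library, BAT ranges crossed 0 for *Fasn* (-0.062 to 0.19), *Acly* (-0.12 to 0.18), *Scd1* (-0.071 to 0.17), *Me1* (-0.027 to 0.20), *Srebf1* (-0.23 to 0.13) and *Mlxipl* (-0.14 to 0.061). So did the log2 ratios of *Acacb* to *Acaca* in iWAT (-0.19 to 0.42), *Scd2* to *Scd1* in BAT (-0.0045 to 1.04), *Scd1* to *Fasn* in BAT (-0.046 to 0.032) and *Acly* to *Fasn* in iWAT (-0.40 to 0.0053) and BAT (-0.22 to 0.073). Apart from *Scd1*, the 8 other members were below 0 in iWAT in 19 of 19 alternatives. An unadjusted p under 0.05 was kept in 17 of 19 for *Mlxipl*, 13 of 19 for *Srebf1* and 8 of 19 for *Acacb*. With 3 libraries per group, FPKM without depth and 1 library per tissue, small differences were not resolved.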
